A study of Mus musculus with 4 samples.

Results

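The 77 genes described here carry the symbols of mitochondrial ribosomal proteins. They are all rows of the deposited tables whose symbol starts with Mrpl or Mrps followed by a number, out of 24421 genes in the tables. By symbol, 48 belong to the large subunit (Mrpl) and 29 to the small subunit (Mrps). Membership was set by symbol alone, though the set was chosen with earlier results of these data known.

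The values come from 4 RNA-seq libraries of mouse brain cells, made for work on Noonan syndrome and the ERK pathway. Male mice 3 to 5 months old came from αCaMKII-Cre and vGAT-IRES-Cre colonies crossed to C57Bl/6J. Of the 4 libraries, 2 are labelled excitatory (αCaMKII-positive cells) and 2 inhibitory (vGAT-positive cells), and each holds 100 fluorescent cells picked by hand with a glass pipette. In such lines the αCaMKII promoter, active mainly in glutamatergic forebrain neurons, or the locus of vGAT, the vesicular GABA transporter, drives the Cre recombinase. The fluorescent reporter, the brain region, any Noonan syndrome allele or treatment, and the animals behind each library are not stated in the labels. The p-values therefore reflect only how far these libraries lie apart, which may be technical. Fewer cells of a type and less RNA per cell cannot be told apart in such pooled samples.

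Mitochondria keep a small genome of their own that encodes core subunits of the respiratory chain and of ATP synthase. These are translated inside the organelle by a dedicated ribosome, whose RNAs come from the mitochondrial genome while all its proteins are encoded in the nucleus and imported. The small subunit decodes the mRNA and the large subunit forms peptide bonds and passes the new chain to the inner membrane. Many of the proteins descend from bacterial ribosomal proteins, and others are found only in mitochondria. Neurons depend heavily on oxidative phosphorylation, and loss of several of these proteins causes mitochondrial disease in people.

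A deposited value is log2(normalized reads + 1), and a difference is the mean of the excitatory minus the mean of the inhibitory libraries on that scale. All differences were taken from limma's moderated test over 13619 genes, of which 71.8% passed at a Benjamini-Hochberg adjusted p of 0.05. The median difference of all tested genes was 0.52, towards the excitatory libraries, so counts of calls are followed by those after median-of-ratios scaling, which put that median at -0.01 (called scaled below). Mbp, a myelin gene, was the highest gene in each library and had the same deposited value in all 4, so that its share of a library differs through the library's total alone; whether the authors' normalization set this value is not known. The depth, estimated from the spacing of the lowest values, was 61900000 to 74200000 reads per library. The labels were only partly matched by marker genes. Slc32a1, which encodes vGAT, stood at 0 throughout and was not tested. Of 10 inhibitory neuron markers 9 were tested. Of these, 4 (44.4%) were higher under the excitatory label and 1 (11.1%) under the inhibitory one (2 and 2 after scaling, 22.2% each). Of 7 excitatory neuron markers 4 (57.1%) were higher in the excitatory libraries and 2 (28.6%) in the inhibitory ones, in both scalings. For all tested genes these shares were 45% and 26.8% (32.4% and 33.5% after scaling). The 44.4% was thus close to the share of all tested genes. Excitatory and inhibitory below therefore mean the libraries so labelled.

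Glial transcripts differed between the labels as well. Of 8 astrocyte markers 6 were higher in the excitatory libraries and 0 in the inhibitory ones (3 and 2 after scaling; 45% and 26.8% of all tested genes, 32.4% and 33.5% after scaling). Their summed level, as a share of a library's linear total, was 25780.5 and 26322 per 1000000 in these against 23720.1 and 21931 in the inhibitory libraries. Of 9 microglia markers 6 were higher in the inhibitory libraries (8 after scaling), with sums of 2162 and 1833 per 1000000 against 572 and 635; Ptprc was at 0 in both excitatory libraries. Of 8 oligodendrocyte markers 3 were higher under the excitatory label and 1 under the inhibitory one (3 and 3 after scaling). They summed to 37101 and 37675 against 51318.5 and 50438 per 1000000, most of it Mbp; the other 7 summed to 4199.7 and 3631 against 1949 and 1903, the opposite order. Of 7 endothelial and mural markers Cldn5, Kdr and Tek were at 0 in every library; 3 passed, all higher in the excitatory libraries, with sums of 14.3 and 16.3 against 0.0477 and 0.157 per 1000000. The part of these cells in the differences of the mitochondrial ribosomal genes was not tested.

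Nearly all mitochondrial ribosomal protein genes were read in every library. All 77 passed the filter on low values, and 74 (96.1%) were above 0 in all 4 libraries, against 77.4% of all tested genes. The 3 others were the small-subunit genes Mrps31, Mrps30 and Mrps2, while all 48 large-subunit genes were above 0 throughout. The median of the large-subunit genes was 11.51 and 11.42 in the excitatory and 10.63 and 10.45 in the inhibitory libraries. For the small-subunit genes it was 11.92 and 11.70 against 11.07 and 10.78. Small-subunit medians were thus the higher ones in each library, by 0.28 to 0.44, without correction for gene length.

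The balance of the subunits was close to the same in the 4 libraries. As a share of a library's total, which no scaling alters, the large-subunit genes summed to 2427 and 2379.7 per 1000000 in the excitatory and 2127 and 2191 in the inhibitory libraries. The small-subunit genes summed to 1923 and 1862 against 1752 and 1739 per 1000000. By symbol, the ratio of large to small was 1.26 and 1.28 in the excitatory and 1.21 and 1.26 in the inhibitory libraries. The nearest libraries of the labels were thus equal at this precision. The proteins of Mrps30 and Mrps18a sit in the large subunit despite their names. Counted there, the large sums were 2515.5 and 2469 (excitatory) against 2262 and 2312 (inhibitory). The small sums were then 1835 and 1772 against 1617 and 1618, which reverses the order of the labels in this ratio. The summed share of all 77 genes was higher in both excitatory libraries (4350.3 and 4241 per 1000000) than in both inhibitory ones (3879 and 3930.3). With Mbp left out of the total the shares were 4498 and 4390.8 against 4081 and 4131 per 1000000, in the same order.

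**Figure D1:**
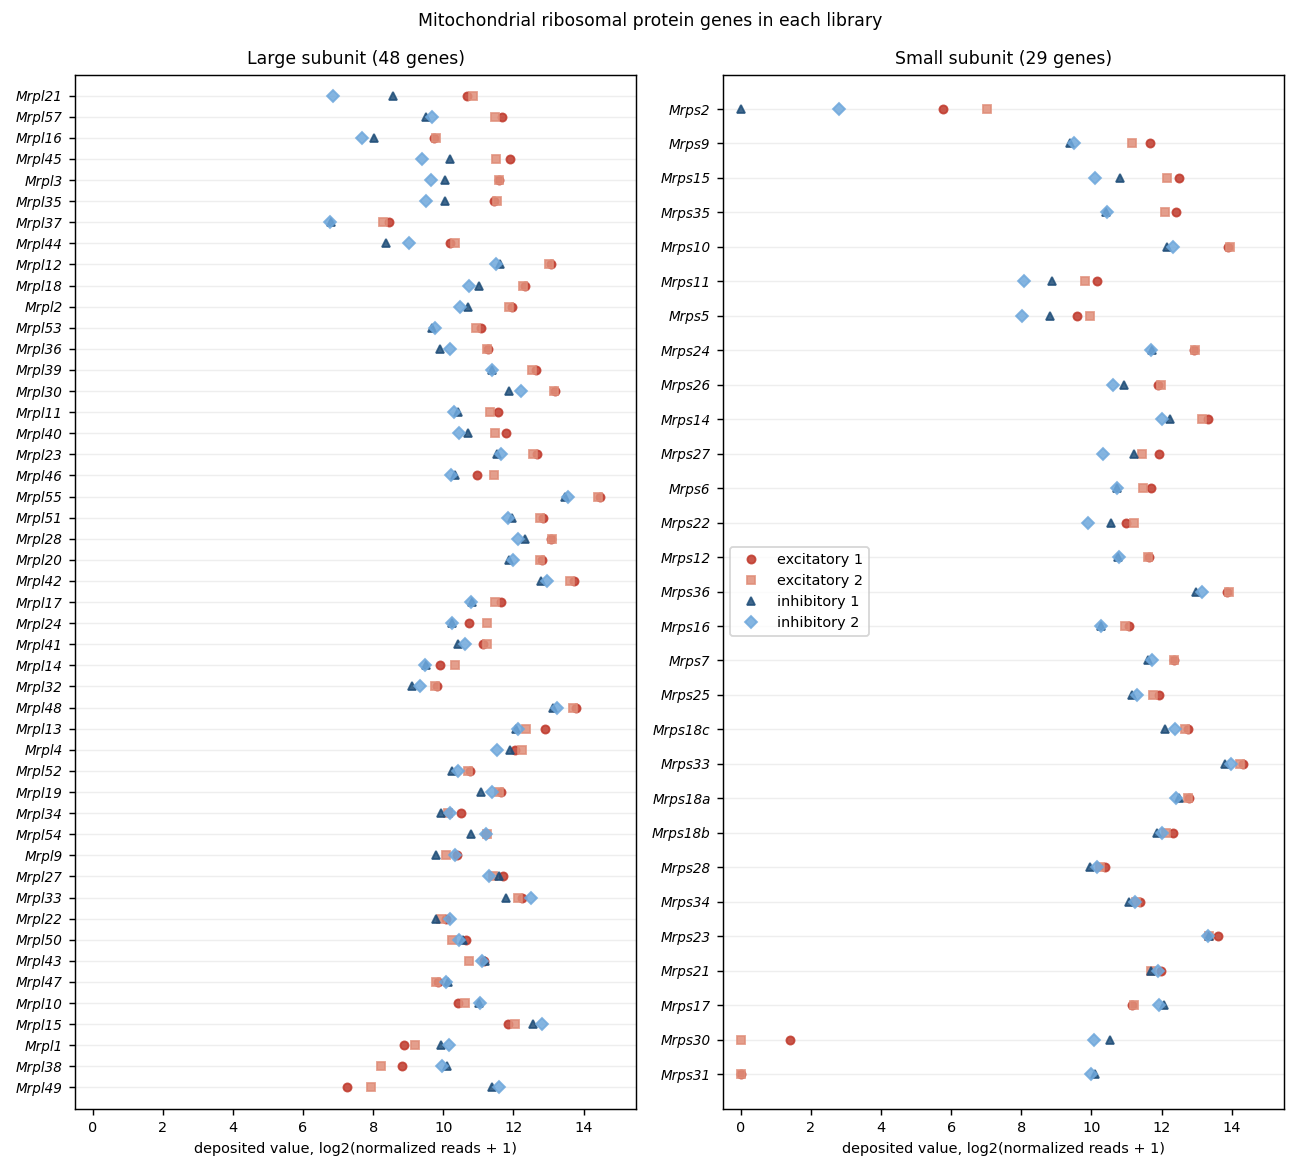
Deposited value of each of the 77 genes in each library (x axis, log2(normalized reads + 1)), with genes of the large subunit (left) and the small subunit (right) on the y axis, ordered by their difference between the labels. Points of a label lie close together for most genes, and Mrps31, Mrps30 and Mrps2 reach 0.

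Of the 77 genes 54 passed limma's test (70.1%, against 71.8% of all tested genes), 47 higher under the excitatory and 7 under the inhibitory label. The share higher in the excitatory libraries was 61.0%, against a background of 45%, and the share higher in the inhibitory libraries 9.09%, against 26.8%. In the large subunit 28 of 48 genes were higher under the excitatory label, 4 were higher under the inhibitory one and 16 did not pass. In the small subunit the counts were 19, 3 and 7 of 29. The median difference was 0.78 for the large and 0.83 for the small subunit, both above the 0.52 of all tested genes. The large minus small difference of the medians was -0.04. Its sign turned without each of the 4 libraries in turn: 0.13 without excitatory replicate 1 and 0.02 to 0.03 without any other. A related measure is the large minus small median value within a library. It was -0.41 and -0.28 (excitatory) and -0.44 and -0.32 (inhibitory), with an SD between replicates of 0.089. No order of the subunits in the difference between labels can be read from these values. With Mrps30 and Mrps18a counted in the large subunit, the medians were 0.75 (large) and 0.86 (small). The spread of that difference was not computed.

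After scaling fewer genes passed and the split was less one-sided. Then 38 of 77 passed (49.4%, against 65.9% of all genes), 26 higher in the excitatory (background 32.4%) and 12 in the inhibitory libraries (background 33.5%). The excitatory libraries were higher in 18 large- and 8 small-subunit genes, and the inhibitory ones in 7 and 5. The scaled medians were 0.24 and 0.28. The 2 scalings shared 33 genes that passed, with 0 in opposite directions. Fits with a library left out used the deposited values, where 54 of the 77 passed with all 4 libraries. Of the genes listed from those fits below, Mrpl20, Mrpl51 and Mrps12 did not pass after scaling. Leaving out a library lowered the count to 25 without excitatory replicate 1 (background 45.2%), 24 without its replicate 2 (44.8%), 32 when inhibitory replicate 1 was dropped (47.4%) and 32 when inhibitory replicate 2 was (48.1%). The backgrounds of genes higher in the excitatory libraries were then 25.9%, 26%, 30.2% and 31.1%, and of those higher in the inhibitory ones 19.3%, 18.8%, 17.1% and 17%. In all 4 of these fits 15 of the 77 passed, where 32% of all tested genes did: Mrpl12, Mrpl20, Mrpl23, Mrpl39, Mrpl51, Mrpl53, Mrpl55, Mrpl57, Mrps10, Mrps12, Mrps24 and Mrps35 higher in the excitatory libraries, and Mrpl49, Mrps30 and Mrps31 higher in the inhibitory ones.

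With upper-quartile scaling 38 genes passed (background 66.4%; 33.1% and 33.3% by direction). The counts were 54 with no filter (64.9%), 55 with a stricter filter (75%), 54 on log2(x + 8) (71.7%) and 48 without the variance trend (66.8%).

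The differences of these genes were also narrow beside those of all tested genes. These genes stood at higher levels, with a median of 11.6 against 9.4 in excitatory replicate 1, and no set of matched level was compared. In all, 5 of 77 (6.49%) differed by more than 2 log2 units in either direction, against 44.4% of all tested genes, and the middle 50% of their differences spanned 0.96 log2 units, against 3.04. The values of the 2 labels did not overlap in 88.3% of the 77 genes, against 86.4% of all tested genes. Across the 77 genes the label means correlated with Pearson's r of 0.55. Over the 74 genes above 0 in all 4 libraries this r was 0.76, so the genes with listed zeros lowered it. For all tested genes r between single libraries of different labels was 0.525 to 0.532. These points share their libraries and are no replicates. Within a label r over the 77 genes was 0.99 for the excitatory and 0.96 for the inhibitory libraries.

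**Figure D2:**
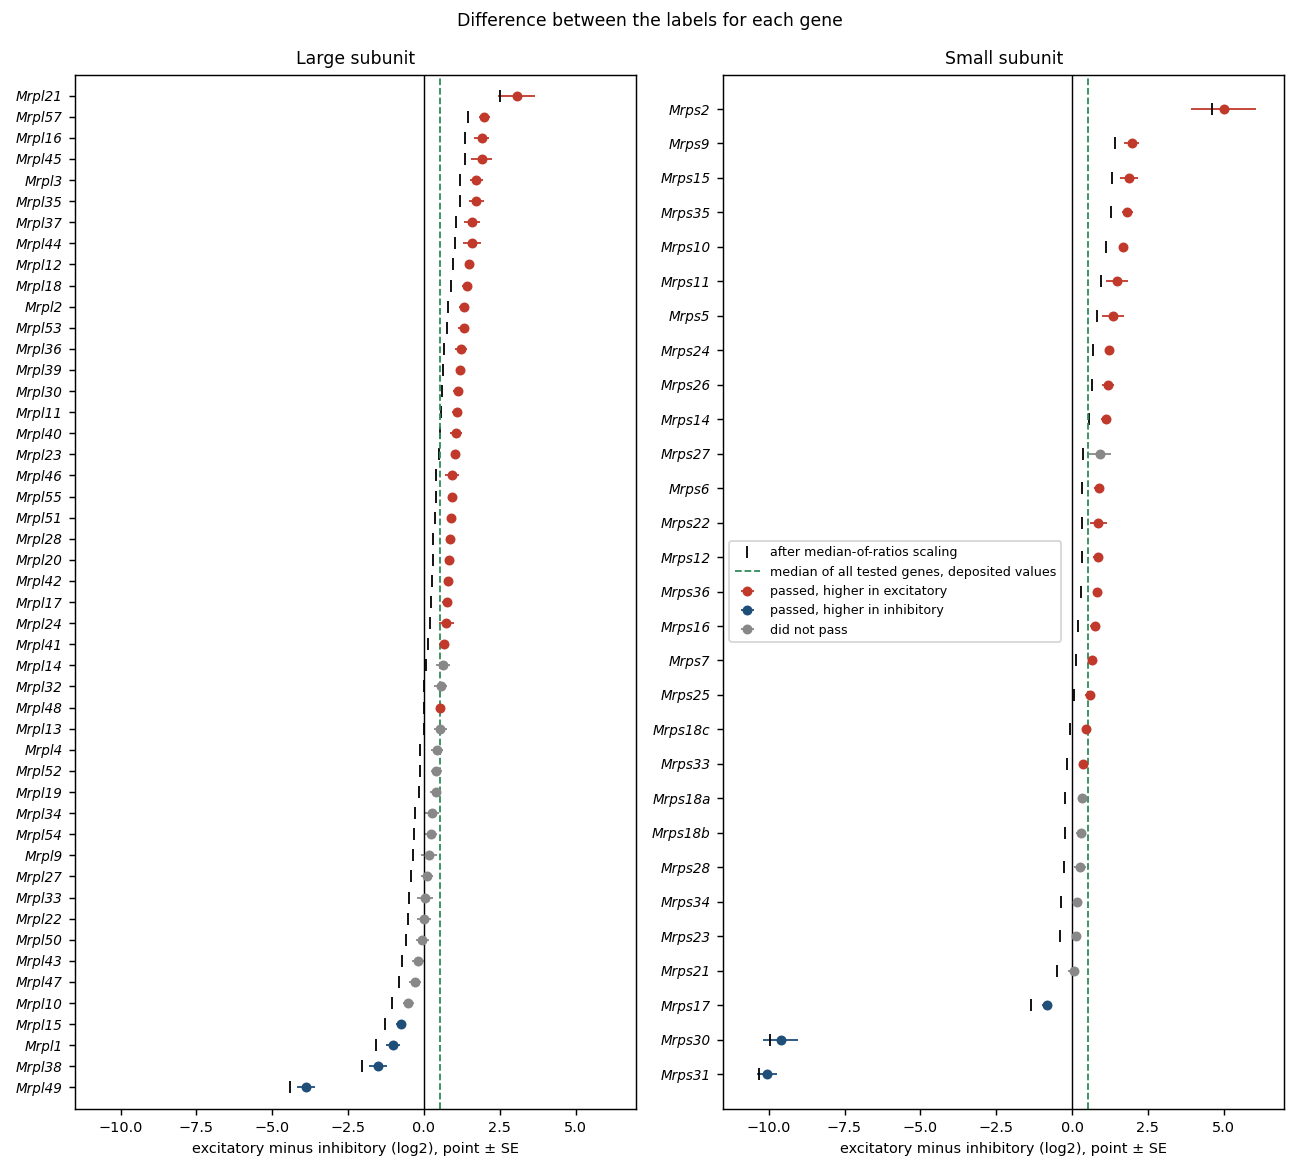
Excitatory minus inhibitory difference of each gene (x axis, log2; points with SE) for the large (left) and small subunit (right), coloured by the result of limma's test, with the value after median-of-ratios scaling as a black tick. The dashed line is the median of all tested genes (0.52); Mrpl49, Mrps30 and Mrps31 lie far to the left and Mrpl21 and Mrps2 to the right.

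The 5 genes beyond 2 log2 units were Mrps31, Mrps30 and Mrpl49, higher in the inhibitory libraries, and Mrps2 and Mrpl21, higher in the excitatory ones. Mrps31 encodes a mitochondria-specific protein of the small subunit's head. Both excitatory libraries listed it at 0, and the inhibitory ones gave 10.11 and 9.998 (limma adjusted p = 9.49e-05). Among all tested genes 10.9% had this pattern of 0 in both libraries of a label and at least 5 in both of the other. Mrps30 had 1.40 and 0 (excitatory) and 10.53 and 10.08 (inhibitory) (difference -9.60, SE 0.58, adjusted p = 2.15e-04). Its protein bears a small-subunit name but sits in the large subunit in structures of the mammalian mitochondrial ribosome. Both genes reached the filter on low values in both inhibitory libraries, and Mrps30 also in excitatory replicate 1. These listed zeros are given as deposited and are no evidence that a gene was silent.

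Mrpl49, a mitochondria-specific protein of the large subunit, had 7.27 and 7.95 (excitatory) and 11.39 and 11.60 (inhibitory). The groups were far apart, a 14.8-fold difference (-3.88, SE 0.31, adjusted p = 4.67e-04; scaled -4.43). Mrps2, the counterpart of bacterial ribosomal protein S2, had 5.76 and 7.02 (excitatory) and 0 and 2.80 (inhibitory). It was the lowest gene of the set in both inhibitory libraries, and its spread there was the largest (SD 1.98). Its difference of 5.00 (SE 1.07, adjusted p = 0.0119) did not pass without excitatory replicate 1 (0.152), excitatory replicate 2 (0.205) or inhibitory replicate 1 (0.0963).

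Mrpl21, the counterpart of bacterial L21, had 10.67 and 10.86 (excitatory) and 8.55 and 6.86 (inhibitory), and the inhibitory libraries lay far apart from each other (SD 1.20). The 8.32-fold difference (3.06, SE 0.60, adjusted p = 0.0089) did not pass without excitatory replicate 1 (0.168) or excitatory replicate 2 (0.181). Where these genes lie in mm10 was read from GENCODE M21: Mrps31 spans positions 22411361 to 22429665 of chromosome 8, Mrps30 118378381 to 118387252 of chromosome 13, Mrpl49 6053622 to 6057785 and Mrpl21 3282901 to 3292837 of chromosome 19, and Mrps2 28468066 to 28471178 of chromosome 2. Reads were not described as stranded, and exons of Mrpl21, Mrpl49 and Mrps30 overlap exons of a gene on the other strand. For Mrpl21 this is Ighmbp2, listed at 0 in all 4 libraries. For Mrpl49 it is Syvn1, with 1.98 and 2.89 (excitatory) and 5.57 and 6.53 (inhibitory).

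The promoters of the gene with the largest difference in each direction in each subunit are shown so that their letters can be compared. Each run holds 170 bases before and 30 from the RefSeq start (build GRCm38.p6), 5′ to 3′ on the gene's strand. Capitals mark the letters CCGGAAG (a core of sites bound by ETS factors such as GABP), the palindromic core of NRF1 sites or AAGATGGC (YY1) on either strand; these factors are known regulators of nuclear genes for mitochondrial proteins.
Mrpl21 (chr19:3282872-3283071, + strand), higher in excitatory: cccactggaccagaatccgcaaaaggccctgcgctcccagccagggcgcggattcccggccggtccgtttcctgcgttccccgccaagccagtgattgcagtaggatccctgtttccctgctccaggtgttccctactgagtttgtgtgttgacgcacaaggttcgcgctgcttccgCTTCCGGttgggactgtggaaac
Mrpl49 (chr19:6057726-6057925, - strand), higher in inhibitory: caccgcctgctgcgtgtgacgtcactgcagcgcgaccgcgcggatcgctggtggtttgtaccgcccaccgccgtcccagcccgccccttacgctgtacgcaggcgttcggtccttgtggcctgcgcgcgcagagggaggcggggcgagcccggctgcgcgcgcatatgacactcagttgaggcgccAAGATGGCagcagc
Mrps2 (chr2:28467896-28468095, + strand), higher in excitatory: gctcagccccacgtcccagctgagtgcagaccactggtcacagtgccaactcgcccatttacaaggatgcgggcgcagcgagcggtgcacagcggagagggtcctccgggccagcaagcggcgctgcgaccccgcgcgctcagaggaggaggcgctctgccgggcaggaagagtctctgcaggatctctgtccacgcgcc
Mrps31 (chr8:22411170-22411369, + strand), higher in inhibitory: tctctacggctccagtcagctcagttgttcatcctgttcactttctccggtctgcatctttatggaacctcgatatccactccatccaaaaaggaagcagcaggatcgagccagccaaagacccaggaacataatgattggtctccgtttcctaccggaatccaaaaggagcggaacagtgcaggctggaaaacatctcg

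Mrpl21 holds the ETS letters and Mrpl49 the YY1 letters, and neither of the small-subunit promoters holds any of the 3 strings. RefSeq promoters of 300 bases (250 before and 50 from the start) were given for 68 of the 77 genes, 74 promoters in all. The ETS letters were in 33.8% of these, against 11.6% of 21262 promoters of protein-coding genes and 8.86% of all 32851. The YY1 letters were in 16.2%, against 3.05% and 2.75%, and the NRF1 letters in 4.05%, against 1.33% and 0.971%. By subunit, 29.8% of large- and 40.7% of small-subunit promoters held the ETS letters, 12.8% and 22.2% the YY1 letters, and 6.38% and 0% the NRF1 letters. The median difference between the labels was 0.54 for genes with the ETS letters and 0.93 for those without, and 0.88 and 0.85 for the YY1 letters. A match describes letters and is not a measured binding site.

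Among the other genes higher in the excitatory libraries, differences reached 3.98-fold. Mrpl57, a mitochondria-specific protein, had 11.69 and 11.47 (excitatory) and 9.50 and 9.67 (inhibitory) (1.99, SE 0.19, limma adjusted p = 8.36e-04; scaled 1.45). Mrps35, a protein of the small subunit's head, had 12.41 and 12.10 against 10.42 and 10.45 (1.82, SE 0.18, adjusted p = 9.07e-04). Neither gene's labels overlapped, and both also passed after scaling and with each library left out in turn.

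Mrps9, the counterpart of bacterial S9 in the head, had 11.67 and 11.15 against 9.38 and 9.51. By limma's adjusted p it did not pass once inhibitory replicate 1 (0.0735) or 2 (0.0672) was left out. Mrps15, the counterpart of S15, had 12.49 and 12.17 against 10.81 and 10.11, a call not kept without excitatory replicate 1 (0.122), excitatory replicate 2 (0.0979) or inhibitory replicate 2 (0.0548). In the large subunit Mrpl16, whose bacterial counterpart helps to bind the aminoacyl end of tRNA, had 9.73 and 9.79 against 8.01 and 7.69. Its call was lost without excitatory replicate 1 (0.0542) or excitatory replicate 2 (0.0564). Mrpl45, which lies at the exit of the peptide tunnel and anchors the ribosome to the inner membrane, had 11.89 and 11.50 against 10.20 and 9.39, and did not pass without excitatory replicate 1 (0.147), excitatory replicate 2 (0.114) or inhibitory replicate 2 (0.0696). With all libraries these 4 genes passed both before scaling (adjusted p = 0.00202 to 0.00652) and after it (0.00551 to 0.0273).

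Beside Mrps30, Mrps31 and Mrpl49, 4 genes were higher in the inhibitory libraries, against the direction of most of the set. Mrpl38, a protein of the central protuberance of the large subunit, had 8.83 and 8.22 (excitatory) and 10.11 and 9.97 (inhibitory) (2.86-fold, limma adjusted p = 0.00847). Mrpl1, the counterpart of the L1 stalk protein, had 8.87 and 9.18 against 9.95 and 10.16 (2.04-fold, adjusted p = 0.0151). Mrps17, the counterpart of S17, had 11.14 and 11.22 against 12.08 and 11.94 (1.77-fold, adjusted p = 0.00684). Mrpl15, the counterpart of L15, had 11.84 and 12.04 against 12.55 and 12.82 (1.68-fold, adjusted p = 0.0128). No labels overlapped in these 4 genes, and all passed after scaling, with larger differences (-1.29 to -2.06). Each lost its call without some library: Mrpl38 without inhibitory replicate 1 (0.13) or 2 (0.113), Mrps17 without excitatory replicate 1 (0.0589) or 2 (0.0539), and Mrpl1 (0.0606 to 0.113) and Mrpl15 (0.0623 to 0.128) whichever of the 4 was left out.

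The genes with the smallest differences were Mrpl22, Mrpl33, Mrps21 and Mrpl50. Mrpl22, the counterpart of a protein that lines the peptide tunnel, had 10.07 and 9.94 (excitatory) and 9.78 and 10.20 (inhibitory). Mrpl33 had 12.23 and 12.12 against 11.80 and 12.49, and Mrps21 had 11.98 and 11.70 against 11.69 and 11.895. Mrpl50, a mitochondria-specific protein, had 10.65 and 10.26 against 10.56 and 10.44. The labels overlapped in all 4, and none passed in the deposited values (limma adjusted p = 0.821 to 0.966). All 4 were below 0 after scaling (-0.49 to -0.59), where Mrps21 passed (adjusted p = 0.0443).

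Mrps18a, Mrps18b and Mrps18c are paralogs, related to bacterial S18, whose proteins occupy separate places in the ribosome. Mrps18a, found in the large subunit despite its name, had 12.79 and 12.76 (excitatory) and 12.49 and 12.42 (inhibitory) (0.32, SE 0.12, limma adjusted p = 0.0616). Mrps18b had 12.34 and 12.13 against 11.87 and 12.01 (0.29, adjusted p = 0.142). Mrps18c had 12.75 and 12.67 against 12.10 and 12.37 (0.48, adjusted p = 0.0411, lost whichever library was left out, at 0.0502 to 0.211). After scaling the 3 differences were -0.22, -0.25 and -0.07, and none passed.

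Grouped by origin, 13 of 15 small-subunit genes with a bacterial counterpart were higher in the excitatory libraries and 1 (Mrps17) in the inhibitory libraries, with a median difference of 1.11 (scaled 0.57; 6 and 2 passed). Of 10 mitochondria-specific small-subunit genes 5 and 1 (Mrps31) passed, with a median of 0.485 (scaled -0.06; 2 and 2 passed). In the large subunit 15 of 29 genes with a bacterial counterpart were higher under the excitatory and 2 under the inhibitory label (median 0.74; scaled 0.20, 11 and 4 passed), and 12 and 2 of 18 mitochondria-specific ones (median 0.85; scaled 0.31, 6 and 3 passed). Over all tested genes the median was 0.52 and the shares 45% and 26.8% (32.4% and 33.5% after scaling), and no test compares the groups. The groups do not cover every gene of either subunit, Mrpl55 and Mrps36 being among those in none. Mrps18b was counted as mitochondria-specific although it is a paralog related to bacterial S18.

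By place in the ribosome, the small subunit's head had 7 of 8 genes higher in the excitatory libraries and 1, Mrps31, in the inhibitory ones, with a median of 1.17. After scaling 5 and 1 of these 8 passed. The 8 are Mrps symbols only and leave out proteins with other symbols, such as Dap3, also a protein of the head. Dap3 was higher in the inhibitory libraries (-1.23, limma adjusted p = 0.0083, scaled -1.77). Mrps10, the counterpart of S10 in the head, had 13.89 and 13.94 (excitatory) and 12.15 and 12.33 (inhibitory), a 3.19-fold difference with no overlap (SE 0.12 on the log2 scale, limma adjusted p = 3.54e-04). Of 5 genes of the stalk that recruits translation GTPases 3 were higher in the excitatory libraries and 0 in the inhibitory ones (median 1.09); after scaling 3 and 1 passed, the latter Mrpl10 (median 0.55). Mrpl12, the stalk protein that contacts these factors, had 13.08 and 13.02 against 11.61 and 11.50 (1.5, SE 0.13, adjusted p = 5.88e-04; scaled 0.96, 0.00368), with no overlap. The other stalk genes that passed were Mrpl11 and Mrpl53; Mrpl11 did not without inhibitory replicate 1 (adjusted p = 0.0569) or 2 (0.0626) by limma. Of 5 genes of the tunnel exit 3 and 0 passed (median 0.74), and 2 and 1 after scaling (0.20). Of 6 of the central protuberance 4 and 1 passed (median 0.74), and 1 and 1 after scaling (0.20). The shares of all tested genes in the paragraph before apply to these small groups too.

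Levels were compared between genes as normalized reads per kilobase of merged coding-transcript exons in GENCODE M21, a linear scale. By the mean of the 4 libraries the highest were Mrps36, Mrpl55, Mrpl42, Mrps33 and Mrpl33. Mrps36, whose protein is also described as a part of the 2-oxoglutarate dehydrogenase complex, had 21357 and 22233 per kilobase (excitatory) and 11636 and 12992 (inhibitory). Mrpl55 had 21852 and 21006 against 10941 and 11613, so that the values of these first genes in the order overlapped in the excitatory libraries and lay next to each other in the inhibitory ones. Mrpl42 had 20009.7 and 18349 against 10314 and 11725, and also lay within reach of Mrps36 in the inhibitory libraries. Mrps33 had 13178 and 12519 against 9389.6 and 10542, and Mrpl33 had 10076 and 9336 against 7437 and 12024, which overlap. Of these 5 genes Mrpl33 did not pass limma's test between labels, and Mrpl55 passed in both scalings and with each library left out in turn. After scaling Mrps36 (adjusted p = 0.0716), Mrpl42 (0.0904) and Mrps33 (0.147) did not pass. Their calls were also lost without excitatory replicate 1 (0.0548, 0.0742 and 0.171) or 2 (0.0593, 0.0624 and 0.133), those of Mrpl42 (0.0505) and Mrps33 (0.0945) without inhibitory replicate 1, and that of Mrps33 without inhibitory replicate 2 (0.0542).

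Next in the small subunit came Mrps10, Mrps23 and Mrps21, with means over the excitatory libraries of 13031, 8001 and 7493 per kilobase and over the inhibitory ones of 4089, 7244 and 7228. Mrps10 was thus above the other 2 in the excitatory and below them in the inhibitory libraries. In the large subunit Mrpl30 followed with 9488 against 4377 and Mrpl28 with 8099 against 4508. Without excitatory replicate 1 or 2 neither passed limma's test (Mrpl30 adjusted p = 0.0871 and 0.0836, Mrpl28 0.0699 and 0.0713), and Mrpl28 did not after scaling (0.138). The median over genes was 1905 per kilobase for excitatory and 1188 for inhibitory libraries for the large subunit, and 2653 and 1375 for the small. The range in the excitatory libraries was 113 to 21429 for the large subunit, with Mrpl49 the lowest, and 0 to 21795 for the small.

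Proteins of the same ribosome that carry other symbols were read in every library too. All 6 in the tables passed limma's test, 4 higher under the excitatory and 2 under the inhibitory label, where 71.8% of all tested genes passed; after scaling 2 and 2 did. Ptcd3, an RNA-binding protein of the small subunit, had 5.37 and 4.94 (excitatory) and 12.02 and 12.10 (inhibitory), with no overlap (-6.90, SE 0.27, adjusted p = 9.49e-05). Dap3, a GTP-binding protein of the head, had 12.16 and 11.55 against 13.04 and 13.11 (2.34-fold, adjusted p = 0.0083), a call lost without inhibitory replicate 1 (0.144) or 2 (0.152).

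Higher in the excitatory libraries were Gadd45gip1 of the large subunit (2.41-fold), Ict1, a peptidyl-tRNA hydrolase built into the large subunit (2.51-fold), Chchd1 (2.01-fold) and Aurkaip1 of the small subunit (1.72-fold). Chchd1 did not pass limma's test whichever library was left out (adjusted p = 0.0542 to 0.14), nor Ict1 without excitatory replicate 1 (0.106), excitatory replicate 2 (0.125) or inhibitory replicate 1 (0.0519). After scaling Gadd45gip1 and Ict1 passed (adjusted p = 0.0195 and 0.0348), while Chchd1 (0.102) and Aurkaip1 (0.185) did not. Mrp63 is not a row name in the tables; Mrpl57, described above, is the current symbol of that gene.

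Factors that assemble the ribosome often differed by large amounts. The tables hold 26 assembly genes, of which 22 were tested. Of these 15 (68.2%) differed by more than 2 log2 units, against 44.4% of all tested genes. The 22 stood at lower levels, with a median of 8.1 against 9.4 in excitatory replicate 1. Of the 22, 54.5% were above 0 in all 4 libraries, against 77.4% of all tested genes. In 22.7% both libraries of 1 label listed 0 and both of the other at least 5, against 10.9%. No set of matched level was compared. In the tested genes 11 were higher under the excitatory and 9 under the inhibitory label (8 and 10 after scaling), with a median of -0.06; 90.9% passed, against 71.8% of all tested genes. Nsun4, an rRNA methyltransferase that acts in subunit assembly, had 11.33 and 10.99 (excitatory) and 0 in each inhibitory library. Mettl15 (9.02 and 9.57) and Rnmtl1 (9.58 and 8.85), both rRNA methyltransferases, were listed at 0 in both excitatory libraries. The GTPase genes Mtg1 (0.43 and 0 against 10.12 and 10.40) and Gtpbp10 (0 and 0.35 against 6.75 and 7.33) were also higher in the inhibitory libraries. Rpusd3, a pseudouridine synthase, had 11.23 and 11.27 (excitatory) and 3.98 and 4.803 (inhibitory). Noa1, Eral1 and Mrm1 were at 0 in every library.

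Translation factors and genes that maintain or transcribe mitochondrial DNA were split as well. Of 13 tested translation factors 5 were higher under the excitatory and 3 under the inhibitory label (2 and 6 after scaling; median 0.01), 61.5% against 71.8% of all tested genes. The elongation factor gene Tufm had 13.11 and 13.15 (excitatory) and 12.31 and 12.004 (inhibitory) (1.97-fold), a call lost after scaling (limma adjusted p = 0.0887) and without excitatory replicate 1 (0.0892) or 2 (0.0926). Tsfm, whose protein recharges the Tufm product with GTP, had 0 and 1.90 against 11.26 and 10.99. The initiation factor gene Mtif2 had 12.69 and 13.50 against 8.93 and 8.94, and the ribosome recycling factor gene Mrrf 11.20 and 11.22 against 9.65 and 9.86. Higher in the inhibitory libraries were also Guf1, an elongation factor gene with 7.66 and 7.995 there and a listed 0 in each excitatory library, and the release factor gene Mtrf1l (4.83 and 5.21 against 9.37 and 9.01).

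Of 13 tested genes of mitochondrial DNA expression 3 were higher under the excitatory and 7 under the inhibitory label (3 and 8 after scaling; median -1.14), 76.9% against 71.8% of all tested genes. Polrmt, the mitochondrial RNA polymerase, had a listed 0 in each excitatory library against 5.78 and 5.74 (inhibitory). Tfb2m, a partner of that polymerase, had 4.545 and 4.39 against 9.66 and 9.40. Mtpap, the mitochondrial poly(A) polymerase, had 1.98 and 1.90 against 10.215 and 10.12, and the RNA-binding protein gene Grsf1 was 2.80-fold higher in the inhibitory libraries. In the other direction, Tfam, which packages mitochondrial DNA, had 9.56 and 9.47 against 7.07 and 7.29, and the helicase gene Peo1 had 6.66 and 6.60 against a listed 0 in each inhibitory library.

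**Figure D3:**
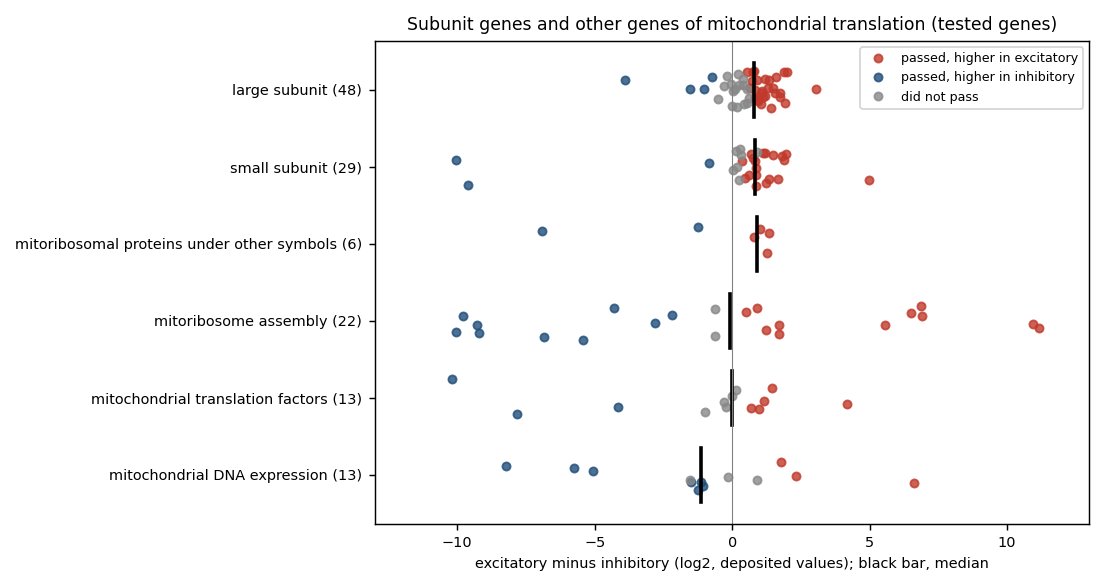
Excitatory minus inhibitory difference (x axis, log2, deposited values) of each tested gene of the large and small subunit and of 4 related lists (y axis, number of tested genes in brackets); points are genes coloured by limma's result, black bars are medians. The subunit genes cluster near their medians of 0.78 and 0.83, while the 22 assembly genes spread to both sides.

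The differences of the 77 genes spanned more than those of cytosolic ribosomal and respiratory chain genes. Of 81 tested cytosolic ribosomal protein genes, which build the ribosome of the cytoplasm, 54 were higher under the excitatory and 0 under the inhibitory label, with a median difference of 0.56. The middle 50% of their differences spanned 0.26 log2 units, and after scaling 8 and 4 passed, with a median of 0.01. Among all tested genes 45% and 26.8% passed in these directions (32.4% and 33.5% after scaling), with a median difference of 0.52. For 84 tested nuclear genes of the respiratory chain and ATP synthase, partners of the proteins this ribosome makes, the counts were 56 and 3, the median 0.59 and the span 0.35 (16 and 6 after scaling). The span of the mitochondrial ribosomal genes was 0.96, and those of the assembly, mitochondrial DNA expression and translation factor genes were wider (9.74, 2.42 and 1.95). These spans are descriptions, and the sets differed in level. In excitatory replicate 1 the median of the 77 genes was 11.6. Cytosolic ribosomal and respiratory chain genes stood higher there (14.1 and 14.3). The assembly, mitochondrial DNA expression and translation factor genes stood lower there (8.1, 9.2 and 11.2). In the same order 54.5%, 84.6% and 84.6% of their tested genes were above 0 in all 4 libraries, against 96.1% of the 77.

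**Figure D4:**
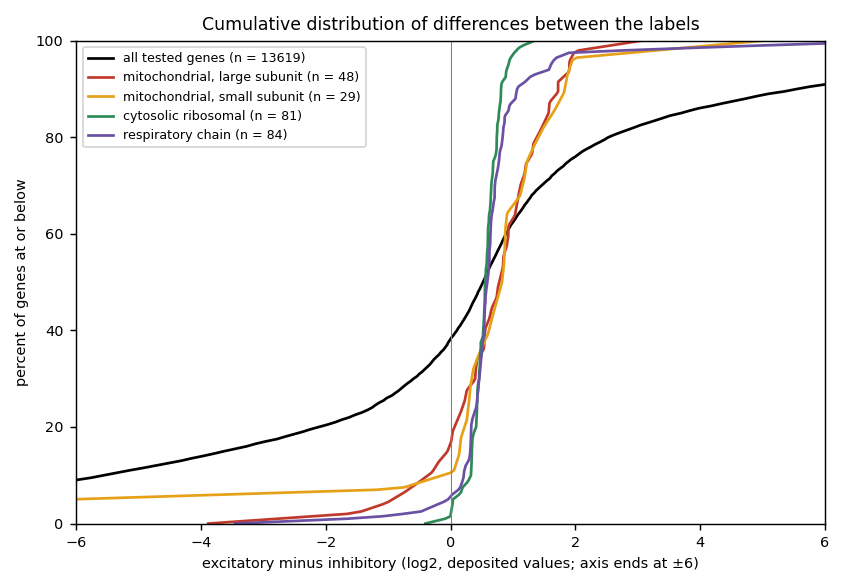
Cumulative percentage of genes (y axis) at or below a given excitatory minus inhibitory difference (x axis, log2, deposited values, drawn from -6 to 6) for all 13619 tested genes, the 2 mitochondrial subunits, cytosolic ribosomal protein genes and respiratory chain genes. The curve of all genes is the widest, and the cytosolic set the steepest.

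The 77 genes lie on 17 chromosomes, with the most (10) on chromosome 11. A head-to-head neighbour, a protein-coding gene on the other strand that starts within 1000 bp upstream, was annotated for 18 of them (23.4%), against 6.78% of all protein-coding genes. Of these neighbours 13 were tested: 5 were higher under the excitatory and 6 under the inhibitory label (84.6%, against 71.8% of all tested genes), and 3 and 6 after scaling, when Fau and Psma2 did not pass. In 6 pairs both genes passed limma's test, and in 1 of these, Mrps12 and Sars2, in the same direction. Mrps12, the counterpart of the S12 decoding protein, had 11.64 and 11.60 (excitatory) and 10.75 and 10.78 (inhibitory), whereas Sars2, a mitochondrial seryl-tRNA synthetase gene 172 bp away, had 10.80 and 10.57 against 0 and 0.79. After scaling Mrps12 did not pass (limma adjusted p = 0.124).

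Mrpl49 starts 59 bp from Fau, which encodes a cytosolic ribosomal protein fused to a ubiquitin-like protein. Fau had 15.54 and 15.45 (excitatory) and 14.78 and 15.03 (inhibitory), the reverse order of Mrpl49. The call of Fau (limma adjusted p = 0.00705) was lost without excitatory replicate 1 (0.14), excitatory replicate 2 (0.117) or inhibitory replicate 1 (0.0548). Mrpl2 had 11.96 and 11.86 (excitatory) and 10.695 and 10.46 (inhibitory), and its call was lost without excitatory replicate 1 (limma adjusted p = 0.0531). Its neighbour Klc4, a kinesin light chain gene 207 bp away, had 1.40 and 0 against 10.78 and 11.14. Mrpl32 and Psma2, a proteasome subunit gene 75 bp away, differed by 0.56 and 0.52; of this pair Psma2 passed (limma adjusted p = 0.00638), which was not the case without excitatory replicate 1 (0.0722), excitatory replicate 2 (0.0614) or inhibitory replicate 1 (0.0531).

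**Figure D5:**
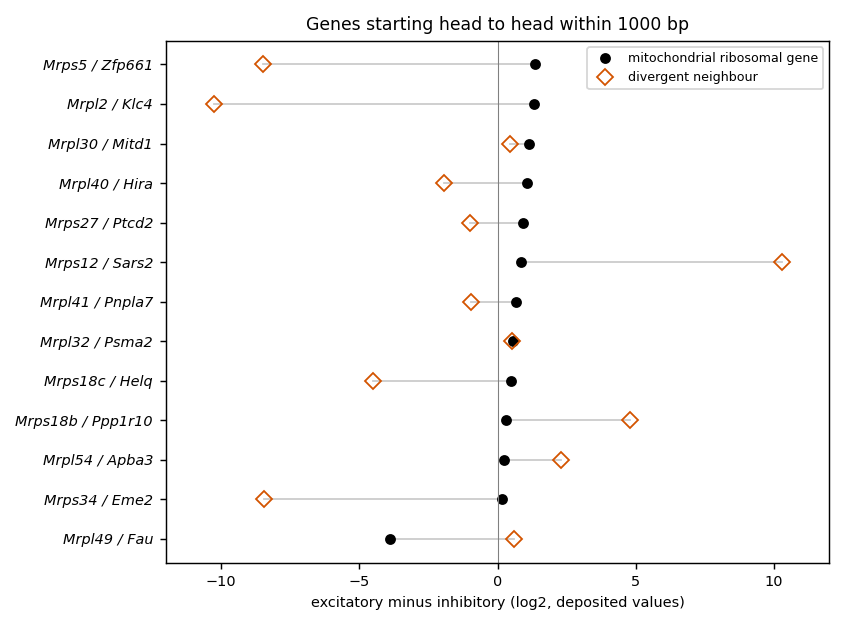
Excitatory minus inhibitory difference (x axis, log2, deposited values) of 13 mitochondrial ribosomal genes (filled circles) and their tested head-to-head neighbours (open diamonds), with the pair named on the y axis and joined by a line. The neighbours reach about 10 in both directions, while 12 of the 13 ribosomal genes lie between 0.17 and 1.35.

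Exons of 23 of the 77 genes overlap exons of another annotated gene, in 21 cases on the opposite strand, and reads of such partners cannot be told apart here. None of the 77 had the same 4 values as another gene. Across the 77 genes the difference between labels had a Pearson's r of -0.07 with log2 exon length and of 0.33 with the mean level, as descriptions over genes of the same 4 libraries.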

How the data were processed

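The authors' deposited tables give 1 value per gene and library on a log2 scale, log2(normalized reads + 1), as settled from the evenly spaced low values. TopHat, edgeR and the build mm10 are named in the submitters' processing notes, with no versions or roles; the sources used here do not give the counting or annotation. In R 4.3.3, limma 3.58.1 with a mean-variance trend compared 2 with 2 libraries over 13619 genes, those that reached a value of 1 in 2 or more libraries (prior 2.56, residual 2 degrees of freedom; Benjamini-Hochberg, threshold 0.05). Count models were not run, since whole reads could not be recovered. The genes and lists were chosen with earlier results of these data known. Named genes were the 8 largest differences that passed in each direction, the 4 smallest, the 5 highest per kilobase in each subunit, genes at 0 in 1 label, Mrps30 and Mrps18a, mitoribosomal proteins under other symbols, and up to 6 per related list by smallest p; the other genes named were chosen after their values were seen. Lengths, positions and neighbours came from GENCODE M21, which held 95.7% of the symbols and all 77 genes. Libraries of a label differed by 39.7 and 49.6 times counting noise (median chi-square of estimated reads), so none was counted as a copy. In simulated data with 13619 genes, only a small part of them, all of high mean level, was changed. Changes of 0.5, 1, 2 and 4 log2 units were recovered in 4%, 56%, 98% and 100% of the genes so changed. In the deposited values 71.8% of the tested genes passed, so these shares do not give the power of the fit used here. Replicate numbers did not pair the libraries. Alternatives were other scalings, filters, pseudocount and variance model, a replicate block and leaving out each library.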

Additional observations from a re-analysis of the deposited data

How the results depend on the processing

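Depth was only estimated, so no counting intervals were computed. Of all genes, 6103 to 6551 passed without 1 library, against 9777. Large-subunit genes higher in the excitatory libraries numbered 28, 18 after median-of-ratios scaling and 13 to 19 without 1 library; those higher in the inhibitory libraries numbered 4, 7 after median-of-ratios and 7 after upper-quartile scaling, and 1 to 2 without 1 library. Small-subunit genes higher in the excitatory libraries numbered 19, 8 after each of these scalings and 7 to 9 without 1 library; those higher in the inhibitory libraries numbered 3, and 5 after median-of-ratios scaling. The median difference of 0.78 (large) was 0.24 and 0.26 after median-of-ratios and upper-quartile scaling, and that of 0.83 (small) 0.28 and 0.30. The large minus small median of -0.04 was 0.0175 to 0.13 without 1 library, the opposite sign each time. After median-of-ratios scaling 18 of 77 genes changed sign, none of them with a call in both. Among named genes the signs of Mrpl22 (-0.53 and -0.51 after median-of-ratios and upper-quartile scaling), Mrpl33 (-0.51 and -0.49), Mrps18a (-0.22 and -0.20), Mrps21 (-0.49 and -0.47), Mrps23 (-0.40 and -0.38) and Mrps33 (-0.17 and -0.15) turned, as did Mrps18b (-0.25) and Mrps18c (-0.07) after median-of-ratios scaling; both scalings divide the excitatory libraries by larger factors. Without 1 library Mrpl22 ranged from -0.20 to 0.224, Mrpl33 from -0.31 to 0.38, Mrps21 from -0.093 to 0.19 and Mrpl50 from -0.25 to 0.14. With the replicate number as a block 53 genes passed, against 54; the deviations of same-numbered libraries had a correlation of -0.0019, so the numbers were not treated as pairs. Other filters, log2(x + 8) and a fit without the trend left 48 to 55 genes passing.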
